A study of Mus musculus with 6 samples.

Results

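Chromatin accessibility was described here at the genes of synaptic and neuronal cell adhesion in mouse embryonic stem cells that lack Lmna. The set was made of every peak of the authors' deposited table of differential ATAC-seq peaks whose assigned gene symbol belonged to the Nrxn, Nlgn, Lrrtm, Slitrk, Cntn, Cntnap, Flrt, Tenm or Csmd genes, or was Dscam, Dscaml1, Lsamp, Ntm, Opcml or Negr1. It held 1215 of the 65535 listed peaks, assigned to 42 genes of 11 families among the 17625 genes with a listed peak. The rule reads gene symbols and not measured values, although the set was proposed with earlier results of these data known. Of these peaks, 597 were assigned to Slitrk1, Slitrk5 and Slitrk6 and lay on distal chromosome 14, from position 75130556 of the mm10 build onward, where most listed peaks held more reads in the knockout cells. That stretch is called the distal chromosome 14 segment below. The other 618 peaks, assigned to 39 genes, lay outside it, and values are given with and without it.

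The tested cells were Lmna KO cells, and the comparison was with control cells whose genotype label is WT. Both were E14 Tg(Nkx2-5-EmGFP) embryonic stem cells, an established mouse line that carries a fluorescent reporter of the cardiac gene Nkx2-5, and each group had 3 libraries. Both were kept with leukemia inhibitory factor on a layer of mouse embryonic fibroblasts treated with mitomycin, and were preplated to take the fibroblasts away. The labels do not say how the knockout was made, whether it is 1 clone, or whether the libraries of a group came from separate cultures, so the p-values of the table stand for variation among these libraries only, and that variation may be technical. ATAC-seq reads open chromatin through the cuts of the Tn5 transposase. The authors' deposited table gives, for each peak, a log2 concentration (the log2 of the mean normalised reads in the peak, not divided by its width) in each group, a log2 fold of knockout over control, a p-value and a false discovery rate (FDR). Values of single libraries are not used here, so no spread within a group and no depth per library can be given. Peaks with an FDR of 0.05 or less are called gained where the fold is positive and lost where it is negative.

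Lmna encodes lamins A and C, filament proteins of the nuclear lamina, the layer under the nuclear envelope that holds much of the silent chromatin of the nucleus. The adhesion genes studied here encode cell surface proteins through which neurons find, bind and connect to each other. Neurexins on the presynaptic side bind neuroligins and LRRTM proteins on the postsynaptic side, and SLITRK, FLRT, teneurin, contactin and IgLON proteins act at synapses or on growing axons. Many of these genes are among the longest of the genome and stand in gene-poor regions.

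As a check of the labels, the strongest changed Lmna promoter peak, at chr3:88492472-88493370, had a log2 concentration of 2.00 in KO cells and 6.27 in control cells in the authors' deposited table (log2 fold -4.27, FDR 4.44e-20). All 8 pluripotency markers examined had listed peaks within 3000 bases of a start, at log2 concentrations of 5.60 to 7.75 in KO cells and 4.63 to 6.94 in control cells. The 10 of 14 neuronal markers with such a peak spanned 3.62 to 7.52 in KO cells and 2.96 to 7.14 in control cells. These ranges overlap those of the pluripotency markers. Of the neuronal peaks behind these ranges, that of Rbfox3 was gained (log2 fold 1.08, FDR 0.00868) and that of Stmn2 was lost (log2 fold -2.02, FDR 9.14e-09). The others were not called. These ranges use 1 peak per gene, and further peaks at a start were called. Pax6 held a gain (log2 fold 0.68, FDR 0.018). Losses were at Map2 (log2 fold -1.69, FDR 0.0031) and again at Stmn2 (log2 fold -2.76, FDR 1.02e-10). The 6 of 10 fibroblast markers with a listed peak within 3000 bases of a start spanned 2.71 to 6.27 in KO cells and 3.50 to 5.98 in control cells. Over the 29 listed peaks of all 10 fibroblast markers, 2 were gained and 2 were lost (6.9% each). The part of remaining fibroblasts in the results was not tested. Pluripotency markers had 21 gained (32.3%) and 2 lost (3.08%) peaks of 65, and neuronal markers had 6 gained (13.6%) and 3 lost (6.82%) peaks of 44. None of these marker peaks lay in the segment. Over all listed peaks outside it, 11.8% were gained and 2.43% were lost.

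Outside the distal chromosome 14 segment, the adhesion genes had a lower share of gained and a higher share of lost peaks than listed peaks as a whole. Of their 618 peaks, 28 were gained (4.53%) and 36 were lost (5.83%) in KO cells, while 11.8% of all listed peaks outside the segment were gained and 2.43% were lost. The median log2 fold was -0.60, with quartiles of -1.18 and 0.61, against a median of 0.45 over all listed peaks outside the segment. Which kind was more numerous in the adhesion genes depended on the setting, with 7 gained and 6 lost peaks at an FDR of 0.01, and 21 gained and 11 lost among peaks no weaker than the median concentration of listed peaks. Shares over all listed peaks were not counted at these settings. At log2 concentrations of 5 or more, 16.5% of adhesion gene peaks were gained and 4.4% lost, against 21.4% and 0.904% of other peaks. At all concentrations, a positive fold was found at 40.9% of the adhesion gene peaks and at 66.7% of all listed peaks outside the segment. The gained peaks had a median log2 fold of 1.08, with median log2 concentrations of 5.60 in KO cells and 4.42 in control cells. The lost peaks had a median log2 fold of -1.70, with median log2 concentrations of 2.48 in KO cells and 4.28 in control cells. Peaks of 1 gene share their surroundings and are not independent, so these shares are a description and no test was made over the set.

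With the segment included, gained peaks outnumbered lost ones. All 1215 peaks held 433 gained (35.6%) and 36 lost (2.96%) peaks, with a median log2 fold of 0.98, against 16.1% gained and 2.26% lost over all listed peaks. Slitrk1, Slitrk5 and Slitrk6 held 405 of the 433 gained peaks, or 93.5%. Gained peaks were assigned to 18 of the 42 genes, and lost peaks to 17, against 28.8% with gains and 7.19% with losses among all 17625 genes. The adhesion genes had more listed peaks each, and genes with as many peaks are compared below. In total 10 genes held both kinds, and 17 genes held neither.

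**Figure D1:**
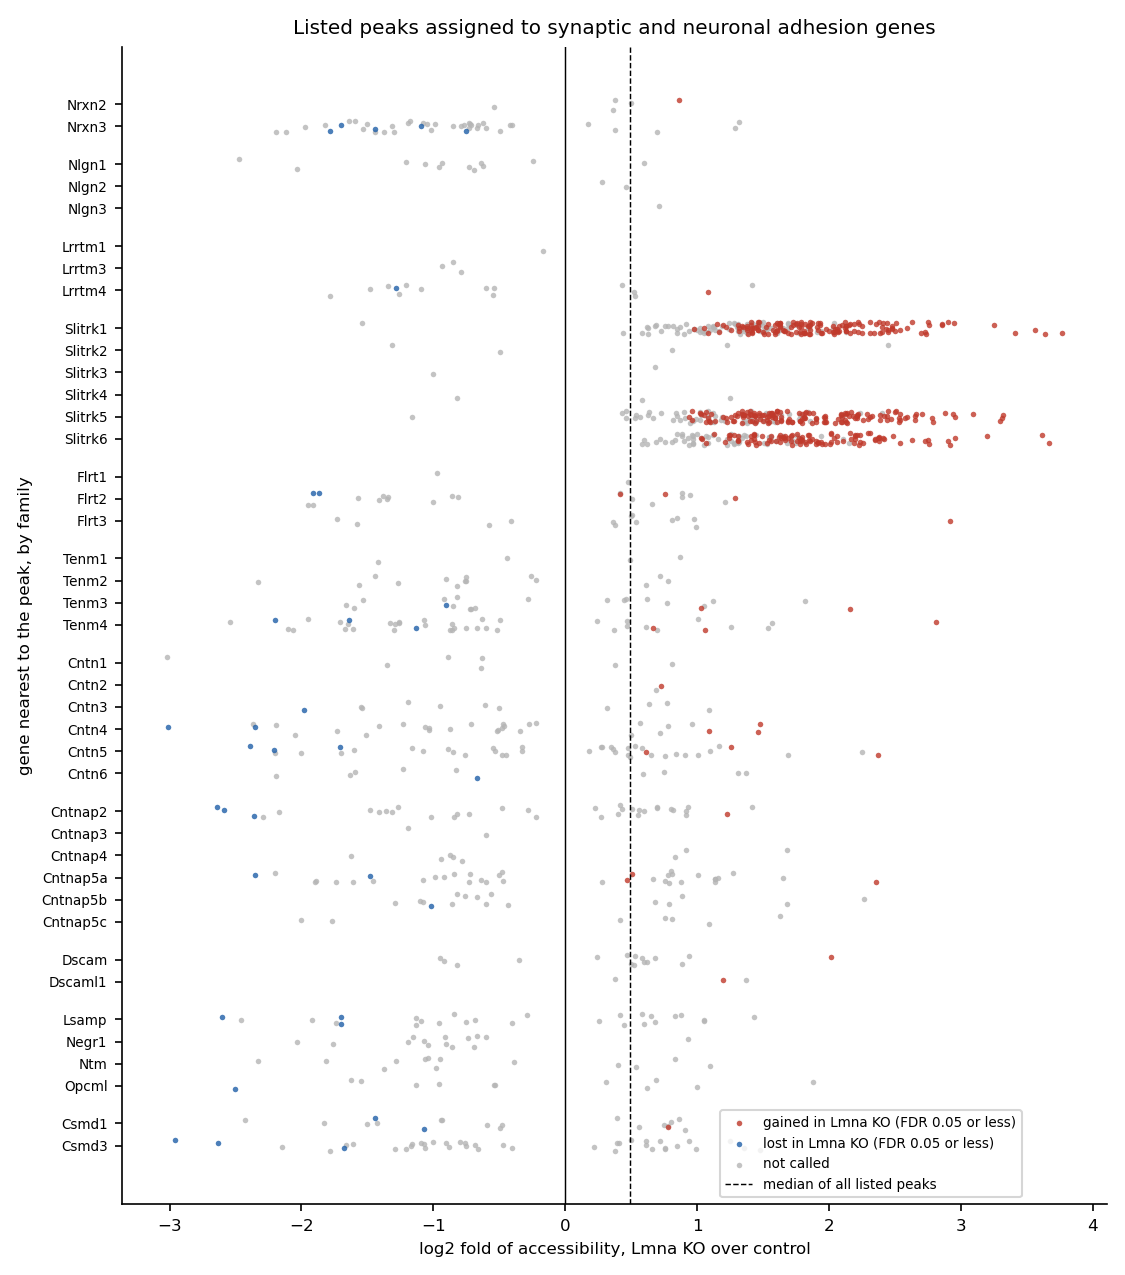
Log2 fold of Lmna KO over control (x axis) at the listed peaks of 41 adhesion genes (rows, grouped by family), with gained peaks in red, lost peaks in blue and the median of all listed peaks as a dashed line. Nearly all peaks of Slitrk1, Slitrk5 and Slitrk6, which lie in the distal chromosome 14 segment, are right of 0, and 25 of the 41 genes have a negative median.

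The promoter sequences of 4 of these genes are printed here as examples: a gained promoter in the segment, a gained promoter outside it, a promoter with parts of the binding site of REST, the repressor of neuronal genes in other tissues, and an open promoter with no called change. The peaks at all 4 had positive folds, and no promoter with a negative fold is printed, although the set held such promoters. Each printed sequence runs from 250 bases before to 50 bases after a RefSeq start (GRCm38.p6, the assembly of mm10), 5′ to 3′ on the strand of the gene, and capitals mark matches to the searched motifs. The Slitrk5 window is chr14:111675777-111676076 on the plus strand, the Cntn2 window chr1:132542891-132543190 on the minus strand, the Cntnap5b window chr1:99772151-99772450 on the plus strand and the Nrxn3 window chr12:89812233-89812532 on the plus strand.
Slitrk5: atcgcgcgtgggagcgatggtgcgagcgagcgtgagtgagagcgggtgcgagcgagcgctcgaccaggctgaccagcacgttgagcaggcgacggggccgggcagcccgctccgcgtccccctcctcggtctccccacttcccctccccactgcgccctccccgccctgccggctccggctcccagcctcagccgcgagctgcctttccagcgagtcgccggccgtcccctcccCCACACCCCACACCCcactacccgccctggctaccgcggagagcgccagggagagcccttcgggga
Cntn2: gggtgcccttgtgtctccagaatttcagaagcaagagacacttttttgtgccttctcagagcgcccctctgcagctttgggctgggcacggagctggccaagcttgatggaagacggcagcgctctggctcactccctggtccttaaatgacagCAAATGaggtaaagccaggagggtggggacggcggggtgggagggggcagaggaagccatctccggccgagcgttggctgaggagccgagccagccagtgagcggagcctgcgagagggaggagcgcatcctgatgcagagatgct
Cntnap5b: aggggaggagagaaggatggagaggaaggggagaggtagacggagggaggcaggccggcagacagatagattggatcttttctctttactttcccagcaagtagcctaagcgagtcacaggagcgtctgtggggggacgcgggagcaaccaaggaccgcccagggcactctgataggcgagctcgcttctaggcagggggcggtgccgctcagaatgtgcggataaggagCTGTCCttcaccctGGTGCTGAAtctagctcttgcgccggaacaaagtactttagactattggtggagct
Nrxn3: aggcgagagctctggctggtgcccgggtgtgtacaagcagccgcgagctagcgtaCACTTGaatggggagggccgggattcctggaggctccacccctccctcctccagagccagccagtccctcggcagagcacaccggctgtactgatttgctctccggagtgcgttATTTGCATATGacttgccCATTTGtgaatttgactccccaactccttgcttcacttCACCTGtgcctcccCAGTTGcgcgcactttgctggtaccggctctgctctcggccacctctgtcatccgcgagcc

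The Slitrk5 window had a GC content of 74.3% and 35 CpG sites, and held 2 overlapping copies of GGGTGTGG, a KLF motif, on the minus strand, which share 1 base. It lay in a gained peak with a log2 concentration of 8.72 in KO cells and 7.28 in control cells. The Cntn2 window held 1 E-box (CANNTG) and lay largely in a gained peak, with log2 concentrations of 6.52 in KO cells and 5.79 in control cells. In the Cntnap5b window, TTCAGCACC and GGACAG, letters of the left and right parts of the REST site, both matched the minus strand with 8 bases between them. Its peak had log2 concentrations of 5.34 in KO cells and 4.55 in control cells and was not called (log2 fold 0.79, FDR 0.0905). The Nrxn3 window, at a start inside the gene, held 5 E-boxes and the POU octamer ATTTGCAT, of which 1 E-box overlaps the octamer. Its peak stood at 7.08 in KO cells and 6.91 in control cells (log2 fold 0.17, FDR 0.635).

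Windows were found for 31 of the 42 genes, 44 in all, and both strands were searched in each and in all 32851 windows of the table. TTCAGCACC was in 4.55% of the adhesion gene windows (2 windows) and 0.371% of all windows. GGACAG was in 20.5% of the adhesion gene windows and 22.2% of all windows, and the AP-1 motif TGANTCA in 6.82% of the adhesion gene windows and 7.81% of all. ATTTGCAT was in 2.27% of the adhesion gene windows and 1.74% of all, and GGGTGTGG in 2.27% and 3.56%. The E-box was in 33 of the 44 windows and in 72.3% of all windows. A match is only a description of these letters, and 19 windows of 16 genes overlapped a listed peak of the set.

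Neurexins are presynaptic receptors with a long alpha and a short beta form made from separate promoters. At Nrxn3, 5 of 42 peaks were lost, none was gained, and 11.9% of folds were positive, with a median of -1.0. The Nrxn3 loss of smallest FDR, at chr12:89741967-89742526 in intron 13 of 18, had a log2 concentration of 2.37 in KO cells and 4.15 in control cells (log2 fold -1.78, standard error 0.55, FDR 0.0157). The standard errors given here are those that the deposited p implies under a normal test. The other Nrxn3 losses spread over more than 1 Mb, from a distal peak that stood at 5.51 in KO cells and 6.26 in control cells to an intron 16 peak that stood at 2.48 in KO cells and 4.19 in control cells. Nrxn2 had 1 gained peak of 5 and no lost peak. The gain, at chr19:6514209-6516214, stood at 5.59 in KO cells and 4.74 in control cells (log2 fold 0.86, FDR 0.0318).

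The postsynaptic partners of neurexins had few listed peaks and few calls. Over all listed peaks outside the segment 11.8% were gained and 2.43% were lost. The neuroligins Nlgn1, Nlgn2 and Nlgn3, which induce presynaptic contacts, held 15 listed peaks and no call, with a median log2 fold of -0.69 and a smallest FDR of 0.0588, at Nlgn1. The Nlgn2 promoter peak stood at 6.85 in KO cells and 6.57 in control cells, and that of Nlgn1 at 5.50 in KO cells and 5.74 in control cells, both without a call. Among LRRTM proteins, leucine-rich repeat partners of neurexins, Lrrtm4 alone held calls, 1 in each direction (5.26% each of 19 LRRTM peaks). Its lost peak at chr6:80056704-80057439 in intron 2, 37.1 kb from a start, stood at 4.12 in KO cells and 5.40 in control cells (log2 fold -1.28, FDR 0.00309). Its gained peak at chr6:80826501-80828510, 806.9 kb from that start, stood at 5.62 in KO cells and 4.55 in control cells (log2 fold 1.08, FDR 0.00979). Lrrtm1, with 1 listed peak at its promoter, stood at 6.71 in KO cells and 6.88 in control cells (FDR 0.562), and the 3 peaks of Lrrtm3 had folds from -0.93 to -0.79 with no call.

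FLRT proteins are leucine-rich repeat receptors that bind latrophilins and Unc5 receptors. Flrt2 held the strongest peak of the set outside the segment, its promoter at chr12:95693544-95695984, with 7.71 in KO cells and 7.29 in control cells (log2 fold 0.42, FDR 0.0432). Its called peak of smallest FDR, at chr12:95519339-95520721, lay upstream of the gene and stood at 5.79 in KO cells and 4.49 in control cells (log2 fold 1.29, standard error 0.31, FDR 0.00128). A lost peak lay 8.24 kb from that gain. The lost Flrt2 peak of smallest FDR, at chr12:95197071-95197462, was intergenic, at -494.8 kb from a start (negative is upstream). It stood at 2.01 in KO cells and 3.92 in control cells (log2 fold -1.91, FDR 0.0285). Flrt3 had 1 gained peak, at chr2:140750421-140751403 in an intron of the neighbouring gene Macrod2, with 3.0 in KO cells and 0.08 in control cells (log2 fold 2.92, FDR 0.0305). The level of that peak in control cells is close to a mean of 1 read, so its fold is uncertain. The Flrt3 promoter stood at 7.10 in KO cells and 6.72 in control cells and was not called (FDR 0.126). Flrt1 had no called peak.

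Teneurins are large transmembrane proteins that bind latrophilins across the synapse. Their 80 peaks held 5 gained (6.25%) and 4 lost (5.0%) peaks, all at Tenm3 and Tenm4. At Tenm3 the gain of smallest FDR, at chr8:48728215-48729640, stood at 5.94 in KO cells and 4.91 in control cells (log2 fold 1.03, FDR 0.00279). Its lost peak, at chr8:48578786-48580134, stood at 4.78 in KO cells and 5.68 in control cells (log2 fold -0.90, FDR 0.0186). Tenm4 had 3 gained and 3 lost peaks of 41. Its gained peak at chr7:96168779-96169759, within 3000 bases of a start, stood at 5.79 in KO cells and 4.73 in control cells (log2 fold 1.06, FDR 0.0109), and its lost peak at chr7:96656720-96657481, in intron 7 of 32, stood at 2.91 in KO cells and 4.54 in control cells (log2 fold -1.64, FDR 0.00558). A gain in the intron before lay 24.7 kb from that loss. Tenm1, with 4 peaks, and Tenm2, with 14 peaks and a median log2 fold of -0.76, had no call.

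Contactins are membrane-anchored immunoglobulin proteins of axons, and CNTNAP proteins are their neurexin-like partners. The contactins held 7 gained and 7 lost peaks of 101 (6.93% each), and the CNTNAP genes 4 gained (3.81%) and 6 lost (5.71%) peaks of 105. The call of smallest FDR outside the segment was a loss at Cntnap2, the gene of the axonal protein Caspr2, at chr6:46916355-46917458 in intron 15 of 23. It stood at 2.02 in KO cells and 4.61 in control cells (log2 fold -2.59, standard error 0.57, FDR 0.000288). Both other Cntnap2 losses were also in introns, with log2 folds of -2.64 and -2.36, while a gain at chr6:45274691-45275317 in an intron stood at 4.78 in KO cells and 3.55 in control cells (log2 fold 1.23, FDR 0.0376). The Cntnap2 peak nearest to an annotated start had 5.96 in KO cells and 6.18 in control cells and was not called.

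Cntnap5a had 3 gained and 2 lost peaks of 37. Its gain at chr1:116550355-116550790 stood at 3.81 in KO cells and 1.45 in control cells (log2 fold 2.36, FDR 0.0130), and its loss at chr1:115931809-115932348 stood at 3.05 in KO cells and 4.53 in control cells (log2 fold -1.48, FDR 0.0159). The strongest peak assigned to Cntnap5a, at chr1:113957949-113959779, stood at 7.48 in KO cells and 7.02 in control cells and was gained (FDR 0.0330). It lay in an intron of another transcript, at -1725.0 kb from the Cntnap5a start (negative is upstream). Cntnap5b lost an exonic peak at chr1:100445795-100446972, with 4.04 in KO cells and 5.06 in control cells (log2 fold -1.02, FDR 0.0367). Cntnap3, Cntnap4 and Cntnap5c had no call.

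Among the contactins, Cntn5 had 3 gained and 3 lost peaks of 41, intermixed along its region. Its gain at chr9:11140038-11141286 stood at 5.60 in KO cells and 4.34 in control cells (log2 fold 1.26, FDR 0.00283). Its loss at chr9:11853115-11853450 stood at 1.40 in KO cells and 3.79 in control cells (log2 fold -2.39, FDR 0.0117). Both of these peaks were intergenic. The strongest Cntn5 peak, with 7.56 in KO cells and 7.38 in control cells, was not called (FDR 0.503). Cntn4 had 3 gained and 2 lost peaks of 30. Its gain at chr6:106358622-106359663 stood at 5.42 in KO cells and 4.33 in control cells (log2 fold 1.09, FDR 0.00989), and its loss at chr6:106058301-106058623 stood at 0.08 in KO cells and 3.09 in control cells (log2 fold -3.01, FDR 0.0210). Cntn3 and Cntn6 each had 1 loss. That of Cntn3, at chr6:102400998-102401832, stood at 2.01 in KO cells and 3.99 in control cells (log2 fold -1.98, FDR 0.0128). That of Cntn6, at chr6:104983905-104984610, was intergenic and 490.7 kb from a start. It stood at 5.32 in KO cells and 5.99 in control cells (log2 fold -0.67, FDR 0.0422). The Cntn2 promoter peak at chr1:132541043-132543188, which holds the printed sequence all but its first bases, was gained (log2 fold 0.73, FDR 0.0176). Cntn1 had no call among 7 peaks.

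Of the 19 peaks of Dscam and Dscaml1, 2 were gained (10.5%) and none was lost. The gained share was near the 11.8% of all listed peaks outside the segment. Dscam, a homophilic adhesion molecule of neurites, had 12 of 16 folds above 0 and 1 gain at chr16:97235163-97236312, upstream of a start, with 4.49 in KO cells and 2.46 in control cells (log2 fold 2.02, standard error 0.52, FDR 0.00246). Its relative Dscaml1 gained an intronic peak at chr9:45623826-45624266 at the limit of the threshold, with 4.56 in KO cells and 3.36 in control cells (log2 fold 1.20, FDR 0.05). The IgLON genes Lsamp, Ntm, Opcml and Negr1, which encode small lipid-anchored adhesion proteins, had 66 peaks with no gain, 4 losses (6.06%) and a median log2 fold of -0.80. The lost share was 5.83% over all adhesion gene peaks outside the segment and 2.43% over all listed peaks there. Lsamp lost 3 peaks, of which a pair lay 4.44 kb apart in intron 1, and the peak at chr16:40596519-40597045 stood at 2.94 in KO cells and 4.64 in control cells (log2 fold -1.70, FDR 0.00518). Opcml lost an intronic peak at chr9:28588848-28589294, with 1.03 in KO cells and 3.53 in control cells (log2 fold -2.50, FDR 0.0363). Ntm and Negr1 had no call, and 13 of the 14 Negr1 folds were negative.

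CSMD proteins are very large transmembrane proteins with CUB and sushi domains. Of the 41 peaks assigned to Csmd3, 3 were lost, all intergenic, and none was gained. The loss of smallest FDR, at chr15:47354603-47355070, lay 260.1 kb from a start. It stood at 2.76 in KO cells and 4.45 in control cells (log2 fold -1.68, FDR 0.00692). Csmd1 lost 2 of 20 peaks, of which the intergenic one at chr8:17654019-17654507 stood at 2.97 in KO cells and 4.41 in control cells (log2 fold -1.44, FDR 0.0274). It also gained a peak at chr8:15984087-15984751, at a start within the gene, with 6.54 in KO cells and 5.76 in control cells (log2 fold 0.78, FDR 0.00467).

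**Figure D2:**
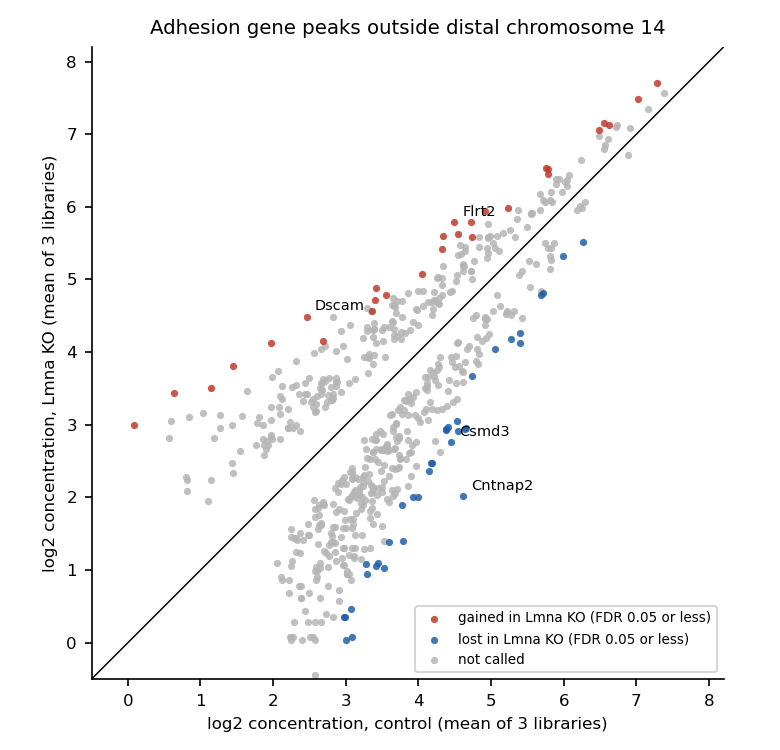
Log2 concentration in Lmna KO cells (y axis) against control cells (x axis) at the 618 adhesion gene peaks outside distal chromosome 14, with equal levels on the diagonal. Lost peaks mostly fall to low levels in KO cells and gained peaks reach higher levels, and the empty band at the diagonal comes from the limit of the listing on p; labelled points are the called peak of smallest FDR of Flrt2, Dscam, Csmd3 and Cntnap2.

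Outside the segment, promoter peaks of the adhesion genes held more gains than losses at an FDR of 0.05, as did other listed promoter peaks. Intronic and intergenic peaks of the adhesion genes held more losses than gains, unlike other listed peaks of these classes. Within 3000 bases of a start there were 50 peaks of 30 genes outside the segment, with 6 gained, 1 lost and a median log2 fold of 0.23. Among other listed promoter peaks outside the segment, 12.1% were gained and 1.29% were lost, with a median of 0.41. The gained share of the adhesion gene promoter peaks was thus near that background, but their folds were lower. A positive fold was found at 54.0% of them, against 81.4% of other promoter peaks, and the lower quartiles were -0.64 and 0.24. None of these 6 gained peaks stayed gained in the centred retest described below. At the peak nearest to a start of each of the 30 genes, Cntn2, Csmd1 and Flrt2 were gained, none was lost, and the median was 0.25. Intronic peaks differed more from their background: 11 of 356 were gained and 20 were lost, with a median of -0.68, while other intronic peaks were gained at 12.9% and lost at 2.51%, with a median of 0.52. Of 195 intergenic peaks 9 were gained and 14 were lost, with a median of -0.52, against 11.0% gained, 3.15% lost and a median of 0.44 at other intergenic peaks. Where a peak lay in an annotated gene body, 337 of 369 (91.3%) lay in the gene to which they were assigned.

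The strength of a peak moved together with the direction of its fold. In the adhesion genes outside the segment 67.5% of peaks had a mean log2 concentration below 4, against 49.1% of other peaks there, and the median distance to a start was 127 kb against 14.4 kb. Of the gained peaks, 15 of 28 (53.6%) had a concentration of 5 or more, against 50.8% of gained peaks of other genes. Of the lost peaks, 25 of 36 (69.4%) were below 4, against 66.5% of lost peaks of other genes, so both shares were near the background. Of the lost peaks, 26 stood below 3 in KO cells, and 13 below 2. At concentrations of 5 or more the adhesion genes had 16.5% gained and 4.40% lost of 91 peaks, against 21.4% and 0.904% of other peaks. Between 4 and 5 the shares were 5.45% and 6.36% of 110 adhesion gene peaks, against 13.5% and 2.41%. Between 3 and 4 they were 2.22% and 7.78% of 180, against 7.83% and 2.76%, and below 3 they were 1.27% and 4.64% of 237, against 3.15% and 3.82%. Positive folds were found at 74.7% of the strongest adhesion gene peaks and 90.8% of other peaks of that strength. Over adhesion gene peaks outside the segment at or above the median concentration of listed peaks the median fold was 0.38. By class, their median fold was -1.14 below 3, -0.55 between 3 and 4, 0.38 between 4 and 5, and 0.37 at 5 or more. The medians of other peaks in these classes were -0.92, 0.57, 0.53 and 0.43. The part of peak strength in the shares of gains and losses was not tested.

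**Figure D3:**
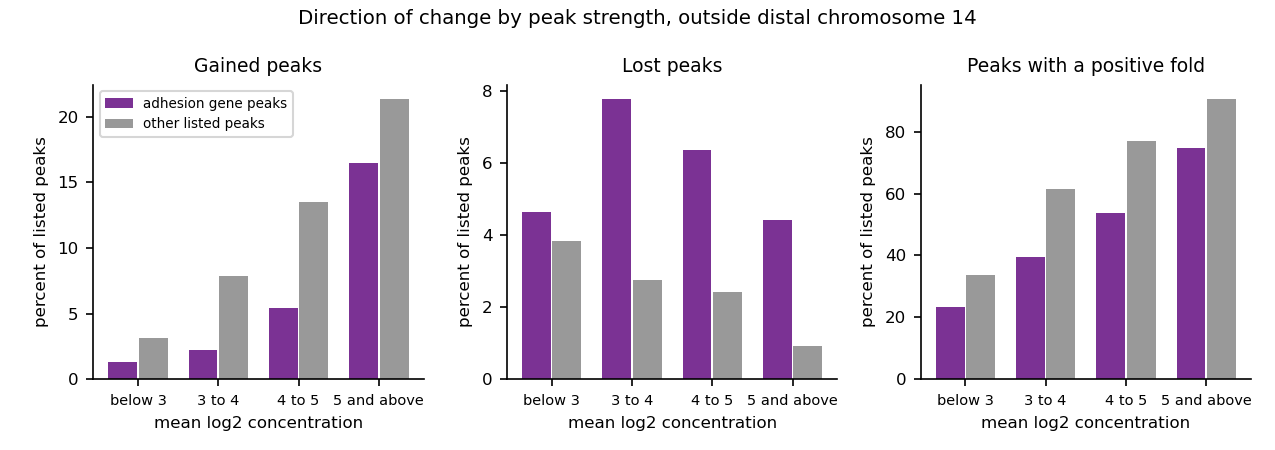
Share of peaks gained, lost and with a positive fold (y axes, percent, 1 panel each) by mean log2 concentration (x axis, 4 classes) for adhesion genes and for all other listed peaks outside distal chromosome 14. In each class adhesion gene peaks have a lower share of gains and a higher share of losses than other peaks.

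Length was also compared, since 21 of the 39 genes outside the segment span 500 kb or more in RefSeq. These 21 genes had 515 peaks, with 21 gained (4.08%), 32 lost (6.21%) and a median log2 fold of -0.62. The other 196 genes of that length had 2898 peaks, of which 8.73% were gained and 3.31% were lost, with a median of 0.33. Other long genes stood between the adhesion genes and the listed peaks as a whole in both shares. The adhesion genes shorter than 500 kb outside the segment had 7 gained (6.8%) and 4 lost (3.88%) of 103 peaks and a median of 0.28. Other genes under 500 kb had 57137 peaks, of which 6883 were gained and 1345 (2.35%) were lost, with a median of 0.45. The shorter adhesion genes thus also had a lower gained share and a higher lost share, although the latter rests on 4 peaks. Among strong peaks (5 or more), long adhesion genes had 13.5% gained and 4.05% lost of 74 peaks, against 22.3% and 1.36% of 515 peaks of other long genes.

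By gene, 23 adhesion genes outside the segment had 10 or more listed peaks. Of these 17 (73.9%) held a lost peak and 12 (52.2%) a gained peak, whereas among the other 1067 genes with as many peaks 34.5% held a lost peak and 75.2% a gained one. A negative median was found in 19 of the 23. The adhesion genes had more peaks each, with a median of 20 against 13 in the others, which bears on any count of genes with at least 1 call. Gains and losses were intermixed among the peaks assigned to a gene, some of which lay between genes. Of 42 pairs of neighbouring called peaks assigned to the same gene, 23 were of the same direction and 19 of opposite direction. The peaks of a pair lay from 4.44 kb to 1790 kb apart, and no such count was made for other genes.

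**Figure D4:**
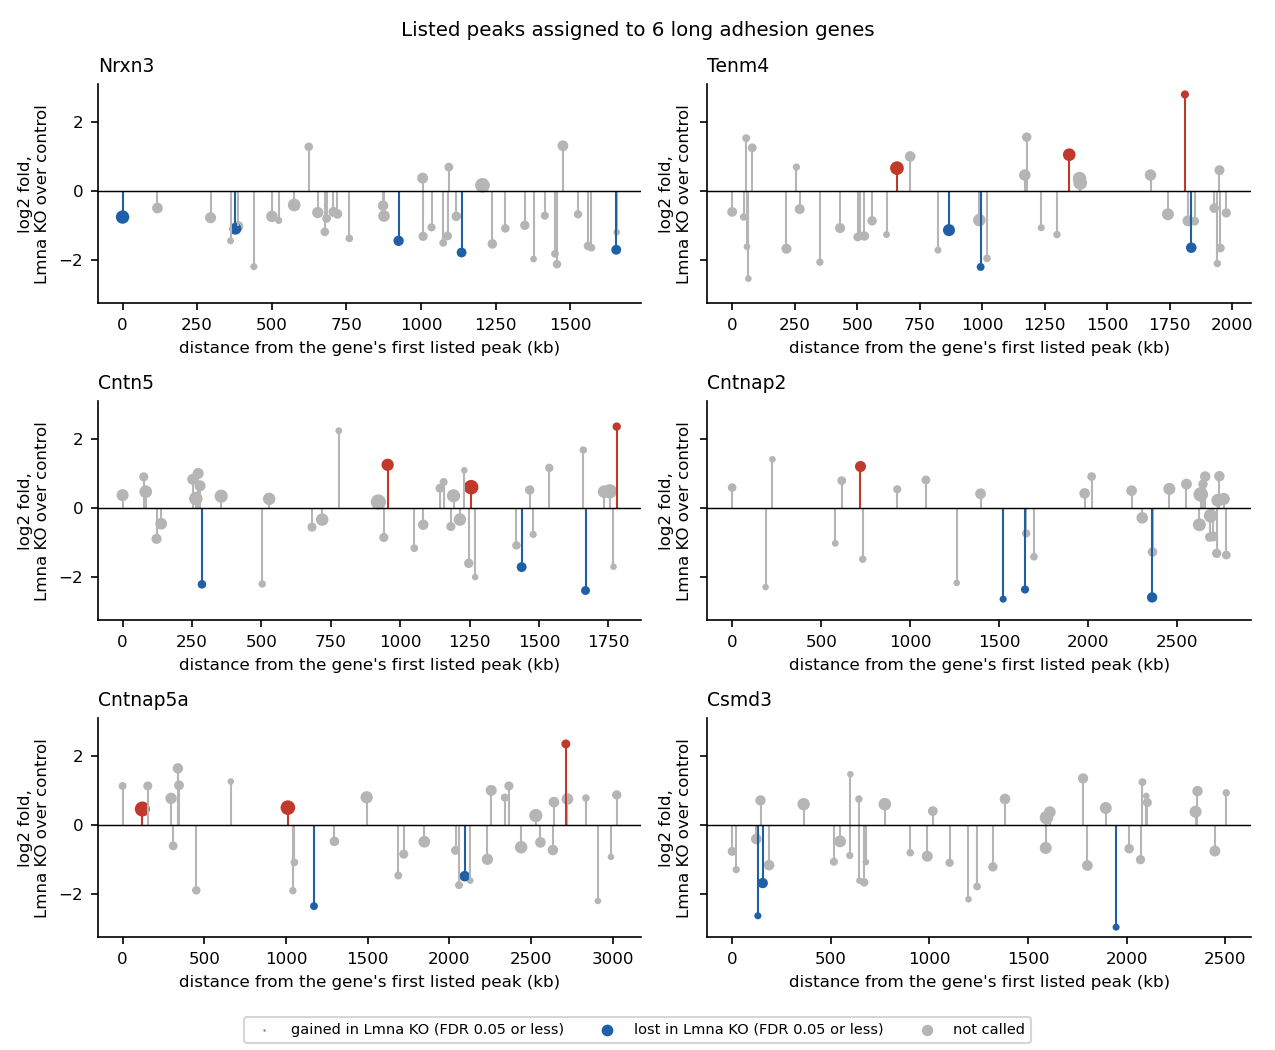
Log2 fold of Lmna KO over control (y axis) against distance from the first listed peak of the gene (x axis, kb) at the listed peaks of Nrxn3, Tenm4, Cntn5, Cntnap2, Cntnap5a and Csmd3, with called peaks coloured and dots larger at higher mean concentration. Nrxn3 has 5 losses and no gain, while gains and losses are intermixed among the peaks assigned to Cntn5 and Tenm4, which include intergenic peaks.

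SLITRK proteins are leucine-rich repeat transmembrane proteins that bind presynaptic receptor phosphatases. Slitrk1, Slitrk5 and Slitrk6 stand in a row on chromosome 14 within the segment. Of the 597 peaks assigned to them, 405 were gained (67.8%), none was lost, and 595 had a positive fold, with a median of 1.63 and quartiles of 1.31 and 2.06. The same held for the segment as a whole, where 70.6% of all listed peaks were gained and the median over the 4233 listed peaks of other genes was 1.69. The gains are therefore near the background of the segment and say nothing particular to these genes. The cause of the higher reads over the segment was not tested. The 3 other SLITRK genes measured, Slitrk2, Slitrk3 and Slitrk4, lie outside the segment and had 10 peaks with no call and a median of 0.63.

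The 597 peaks covered 5.52 Mb, from chr14:107722156 to chr14:113239795, and made up 12.4% of the listed peaks of the segment. Of these peaks 580 were intergenic. Slitrk1 had 148 gained peaks of 224, Slitrk5 152 of 210 and Slitrk6 105 of 163, with medians of 1.65, 1.58 and 1.65. The Slitrk1 peak of smallest FDR, at chr14:107849565-107850409, stood at 7.18 in KO cells and 4.77 in control cells (log2 fold 2.41, standard error 0.25, FDR 5.7e-20). That of Slitrk5, at chr14:111427349-111430180, upstream of the gene, stood at 8.83 in KO cells and 6.99 in control cells (log2 fold 1.85, standard error 0.13, FDR 1.82e-42), and was the strongest peak of the whole set. That of Slitrk6, at chr14:111115292-111117171, stood at 7.33 in KO cells and 5.90 in control cells (log2 fold 1.43, standard error 0.19, FDR 7.7e-12).

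Promoters of these genes varied. The Slitrk5 promoter peak at chr14:111674408-111677211 had a log2 fold of 1.44 (FDR 3.48e-20), and the Slitrk1 peak at chr14:108913596-108913994 had 5.39 in KO cells and 3.94 in control cells (log2 fold 1.45, FDR 0.00129). The Slitrk6 promoter stood at 5.32 in KO cells and 4.72 in control cells and was not called (log2 fold 0.60, FDR 0.193). The median fold lay between 1.55 and 1.72 in every band of distance from the start. Within 100 kb of a start 44 of 66 peaks were gained with a median of 1.55, between 100 and 300 kb 87 of 129 with 1.66, between 300 and 600 kb 118 of 169 with 1.72, between 600 and 1000 kb 102 of 162 with 1.63, and beyond that 54 of 71 with 1.57. The 192 peaks that were not called had a median fold of 1.25, so they too were mostly of the same direction. Among strong peaks, the 43 of these genes had a median of 1.39, against 1.67 at the 772 other strong peaks of the segment.

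**Figure D5:**
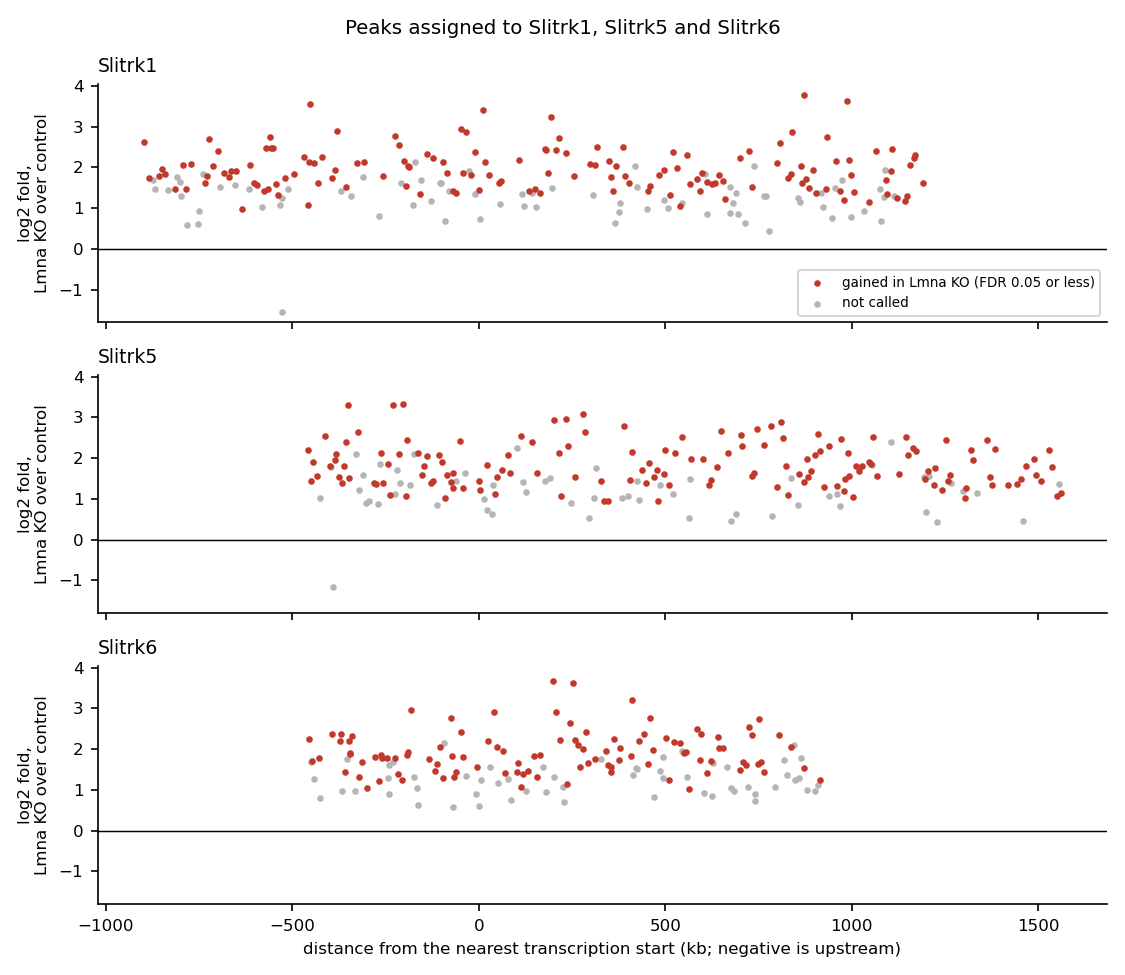
Log2 fold of Lmna KO over control (y axis) against distance from the start of the gene (x axis, kb) at the 597 peaks of Slitrk1, Slitrk5 and Slitrk6 on distal chromosome 14. Folds are positive at 595 peaks, and band medians stay between 1.55 and 1.72 at all distances.

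Most listed peaks had a positive fold (median 0.49 over all listed peaks), so the calls depend on where no change is placed. When folds were centred on that median and retested with the implied standard errors, 1 of the 618 peaks outside the segment was gained and 130 were lost (21.0%), and their median was -1.09. Over all listed peaks outside the segment the retest gave 2.04% gained and 9.63% lost. All 36 lost peaks remained lost, which follows from the centring, since it makes each of their folds more negative. Of the 28 gained peaks the Dscam peak alone remained. It had a centred log2 fold of 1.53 and a Benjamini-Hochberg adjusted p of 0.0400 in the normal retest. In the segment 152 peaks stayed gained and none was lost. Listed peaks leave out those with the smallest changes, so the median over all tested peaks is not known, and the centred counts show only how far the calls move.

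The other genes of the synapse were read from a list of 66 genes that are not members of the set. It held receptors and ligands, scaffolds of the postsynaptic density and other neuronal adhesion genes, and 64 genes had 785 listed peaks, none of them in the segment. Of these peaks, 64 were gained (8.15%) and 27 were lost (3.44%), with a median log2 fold of 0.32. Over all listed peaks outside the segment 11.8% were gained and 2.43% were lost, with a median of 0.45. The gained share of the list was thus below that background and the lost share above it. Receptors and ligands had 33 gained (11.3%) and 12 lost (4.1%) peaks of 293 and a median of 0.42. Among those of smallest FDR were gains at Adgrl2, a latrophilin, with 6.16 in KO cells and 4.67 in control cells (log2 fold 1.49) and at Ptprd, a receptor phosphatase that binds SLITRK proteins, with 6.26 in KO cells and 3.98 in control cells (2.29). Adgrl2 also held a loss, with a log2 fold of -2.51, and Unc5d, a receptor of FLRT proteins, held a loss of -1.55.

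Scaffolds had 8 gained (4.88%) and 3 lost (1.83%) peaks of 164. Gains were at Gphn (log2 fold 1.58) and Homer2 (1.51), among others, and losses at Magi2 (-1.69) and Dlg2 (-1.61), among others. Magi2 also held a gained peak, with a log2 concentration of 6.79 in KO cells and 5.67 in control cells (FDR 8.82e-06). The other neuronal adhesion genes had 23 gained (7.01%) and 12 lost (3.66%) peaks of 328 and, alone among these groups, a negative median of -0.36. Gains of smallest FDR were at Ncam2 (log2 fold 2.36), Lrrc4c (1.75) and the axon guidance receptor Robo1 (0.92), and losses at Sdk1 (-1.64), Cadm1 (-3.42) and Sdk2 (-3.72).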

How the data were processed

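Per the submitters' processing notes, the build was mm10 and the tools were Bowtie2, Trimmomatic 0.39, Picard 1.119, SAMtools, MACS2, deepTools, bedtools 2.28.0, DiffBind, ChIPseeker and DESeq2. Their order, their settings, the Tn5 shift of reads and the normalization are also not given in the sources used. The log2 concentrations and log2 fold are group values deposited by the authors, and each fold matched the difference of knockout and control concentrations to 0.01. The p-value and FDR are the authors' deposited values. The number of tested peaks is not given, and about 99100 was inferred here from FDR, rank and p. The list ends at 65535 peaks, with a largest p of 0.422. By that inference about 33565 tested peaks are not listed and not analysed here. Gene symbols and annotation are the table's, with 1-based mm10 coordinates. Counts per library are not used here, so the planned edgeR branch was not followed and the deposited statistics were used.

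Members, gene lists and tests were chosen with earlier results of these data known. Every gene with a called peak is named with its peak of smallest FDR in each direction, and of other lists up to 3 genes per direction. Results of a few of these genes are not reported here. Uncalled promoter peaks named beside them were picked after their values were seen. In the centred retest, 0.49 was subtracted from each fold, the standard error was derived from the deposited p assuming a normal statistic, and Benjamini-Hochberg adjustment ran over the tested peaks with unlisted peaks held at a p of 1. No genome was used, so the planned motif search in peaks was replaced by RefSeq promoter windows (GRCm38.p6). RefSeq entries matched all 42 genes, and promoter windows 31. The software was matplotlib 3.10.9, SciPy 1.17.1, pandas 2.3.3 and numpy 2.4.6 under Python 3.11.15.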

Additional observations from a re-analysis of the deposited data

How the results depend on the processing

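No paired analysis was possible because the deposited values are group means, which carry no replicate. For the same reason leaving out each replicate, edgeR and the DESeq2 alternative were not run.

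At an FDR of 0.01, 242 peaks were gained and 6 lost, in 10 and 5 genes, and outside the distal chromosome 14 segment 7 were gained and 6 lost, in 7 and 5 genes. With log2 folds of 1 or more in size required, 18 peaks were gained and 32 lost outside the segment. Among peaks no weaker than the median concentration of listed peaks, 220 peaks were gained and 11 lost, with lost peaks in 9 genes, and outside the segment 21 were gained in 13 genes and 11 lost in 9 genes, with a median fold of 0.38. At this setting and at an FDR of 0.01 gained peaks outnumbered lost ones outside the segment, whereas the full set there held 28 gained and 36 lost. Shares over all listed peaks were not counted at these settings, so the counts give no comparison with other genes. Only inside genes or within 3000 bases of a start, 31 peaks were gained and 22 lost with a median of -0.55, and outside the segment 19 were gained and 22 lost. After centring, 153 peaks were gained in 4 genes and 130 lost in 27 genes, with a median of 0.49, and outside the segment 1 was gained in 1 gene and 130 lost in 27 genes, with a median of -1.09. Without the CSMD and CNTNAP families the median of all peaks was 1.14. The cause of these shifts was not tested.

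Of the 35 peaks of smallest FDR per gene and direction, none changed direction, but the settings could hardly have given another outcome. The thresholds leave each fold as it is, and centring only lowers each fold by 0.49, which makes lost folds more negative. At an FDR of 0.01, 10 of 18 gained and 5 of 17 lost peaks stayed called, with a minimum fold of 1, 15 and 14 did, and after centring 4 and 17 did. Low concentrations limit the weakest calls, since at a level near 1 read the fold of a peak is poorly determined.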
